A study of Homo sapiens with 12 samples.

Results

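The 9 genes described here are STAT3, STAT5A, STAT5B and STAT6, the SOCS-family genes SOCS1, SOCS2, SOCS3 and CISH, and the kinase gene PIM1. They were picked by name, as STAT genes and genes that STAT proteins switch on, from the 14866 genes in the tables, and all 9 were listed and passed the filter on low values. The cells were SHI-1, a human acute myeloid leukemia line that carries the MLL-AF6 fusion. RNA was collected after 16 h in 4 groups of 3 libraries, each from an independent experiment. The DMSO group was the solvent control. The DSF group received 0.3 µM disulfiram with 1 µM copper (Cu), the NSM group 5 µM niclosamide, and the DSF+NSM group all of these at the same concentrations. The sources used here do not say whether Cu was also given to the DMSO and NSM groups. All values come from 1 cell line at 1 time point.

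Cytokine receptors pass their signal through Janus kinases (JAK), which phosphorylate STAT proteins, and the phosphorylated STAT dimers enter the nucleus and activate genes. Among these genes are CISH and the SOCS genes, whose proteins block the receptors and kinases in a negative feedback loop, and PIM1, which encodes a serine/threonine kinase that favours survival and growth of blood cells. Disulfiram is an alcohol-aversion drug that binds copper, and niclosamide is an anthelmintic that uncouples mitochondria and is also described as an inhibitor of STAT3 activation. Transcript levels do not show whether a STAT protein was phosphorylated, and none of the values below measures that.

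The promoter of CISH, a gene widely used as a readout of STAT5, is shown because it held more matches to the STAT motif than any other promoter window of the 9 genes. STAT dimers bind the palindrome TTCNNNGAA, where N is any base, and STAT6 prefers the form with 1 more base in the middle, TTCNNNNGAA. The 250 bases before the start of CISH (GRCh38.p14, chr3:50611775-50612024, minus strand, RefSeq) are given 5′ to 3′, with the matches to TTCNNNGAA in capitals.
CISH: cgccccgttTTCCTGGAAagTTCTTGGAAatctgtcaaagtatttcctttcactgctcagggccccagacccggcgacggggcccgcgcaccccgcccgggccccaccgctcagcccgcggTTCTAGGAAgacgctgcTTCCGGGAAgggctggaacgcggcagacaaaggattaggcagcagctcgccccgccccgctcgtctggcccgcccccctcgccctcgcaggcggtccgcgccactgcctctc
The 4 matches begin 241, 230, 129 and 112 bases before the start and do not overlap each other. The palindrome reads the same on both strands, so 1 search covers both. Of 35116 promoter windows of this length, 6.57% held at least 1 match and 5 windows (0.0142%) held 4 or more. Windows were on hand for 8 of the 9 genes, and no other window of these genes held a match. The windows of SOCS3, STAT5B and STAT6 lay away from the gene starts given below, and that of STAT3 covered the bases before its start in part. For SOCS3, STAT5B and STAT6 the bases directly before those starts were therefore not searched. The longer form was found in 5.38% of all windows and, among the 9 genes, in 1 window of STAT5A. A match is a description of the letters and not evidence of binding.

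The signal in the tables is a normalized count, and its sum per library ran from 14.0 to 14.4 M for DMSO. It was 14.9 to 15.3 M for DSF libraries, 16.5 to 17.5 M where NSM was given alone and 22.7 to 25.6 M with both drugs. The estimated depth was 10.2 to 19.0 M reads per library. Each gene was tested with limma on log2(normalized count + 1) over all 12 libraries, and calls were made where the adjusted p (Benjamini-Hochberg, over 13502 genes) was under 0.05. NSM replicate 3 stood apart from the rest. Across genes, its Spearman correlation with the other NSM libraries was 0.952 and 0.959, against 0.981 to 0.996 within the groups otherwise, and it held the lowest NSM value in 8 of the 9 genes and the highest in SOCS2. All 8 listed myeloid markers, among them PTPRC, CD33 and SPI1, were above 0 in every library. The sum over 8 myeloid markers, most of it MPO, was 63370 to 72641 in DMSO, 42188 to 48546 in DSF, 29394 to 34498 in NSM and 31171 to 32153 in DSF+NSM. Without MPO it was 9209 to 10000.5, 11916 to 12872, 14240 to 15869 and 9137 to 11847 in the same order. Limma called 2 of the 8 higher (ITGAM and CD14) and 1 lower (MPO) after DSF, 4 and 3 after NSM, and 2 and 2 after DSF+NSM (1 and 6 under equal sums). The shares called over all genes are given further below. The sum over 6 listed markers of other cells was 100.0 to 110.0 in DMSO, 123 to 137 in DSF, 140.3 to 191 in NSM and 203 to 390.5 in DSF+NSM. Of the 3 tested, CD3E was called higher after NSM and DSF+NSM and COL1A1 after DSF+NSM (63.9 to 134, against 19.9 to 24.7 in DMSO), while the B-cell marker MS4A1 was at 0 in all 12 libraries. The part of these shifts in the results below was not tested, and in bulk RNA fewer cells of a type and less RNA per cell cannot be told apart.

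**Figure D1:**
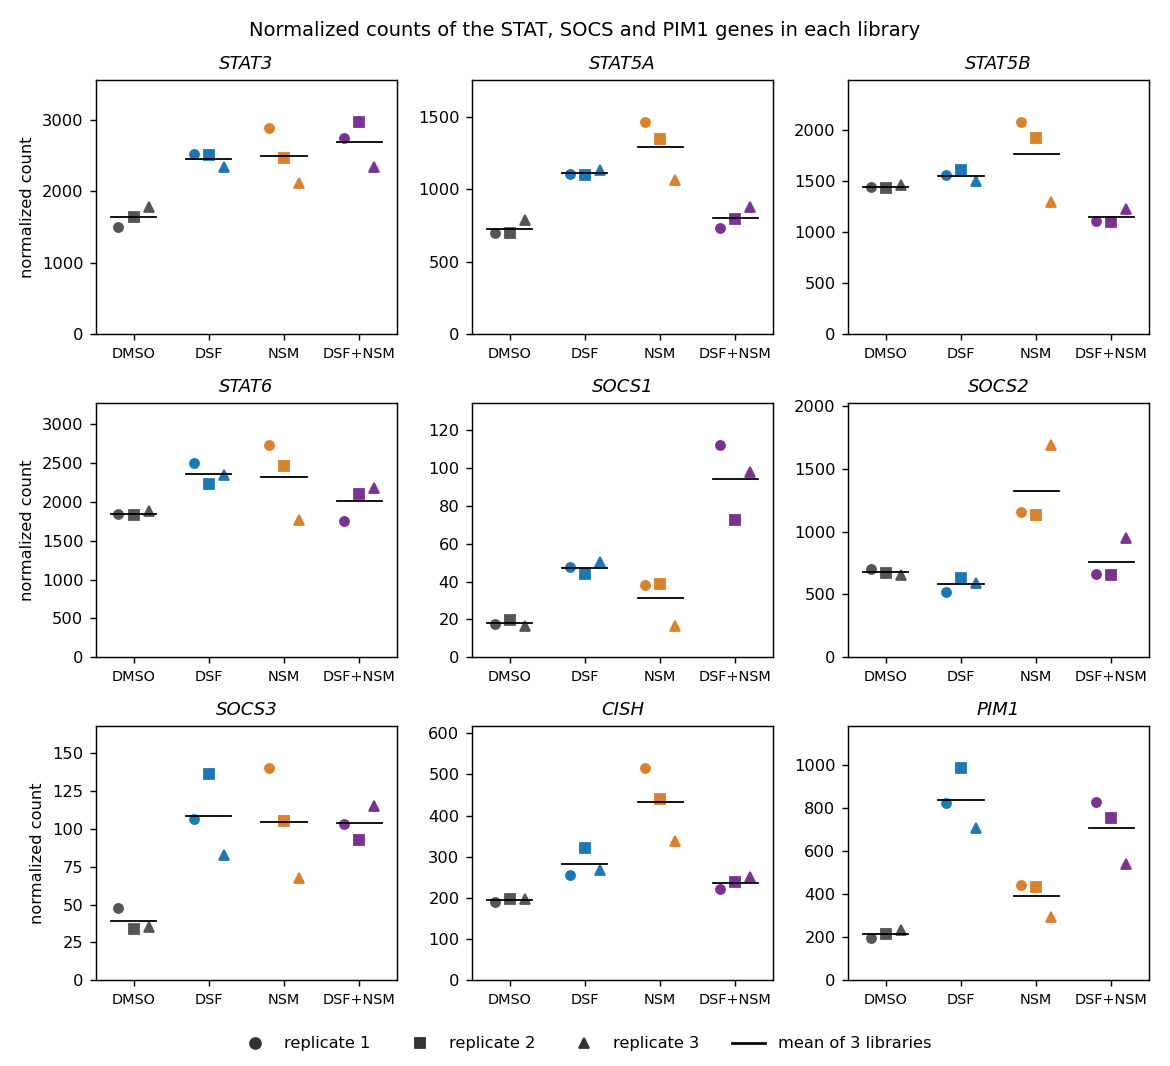
Normalized counts (y axis, from 0) of the 9 genes in each of the 12 libraries, by group, with a bar at the mean of 3 libraries. PIM1 and SOCS3 sat above all DMSO libraries in every treated library. CISH was highest in NSM, and STAT5A had its highest mean there, with libraries that overlapped DSF. Both were near DMSO in DSF+NSM.

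Per kilobase of the annotated transcript, STAT6 had the highest level of the 9 genes in the DMSO group, with 466 ± 6.81 normalized counts per kb (SD, n = 3). STAT3 followed at 334 ± 27.2, then STAT5B at 285 ± 3.77 and SOCS2 at 283 ± 9.18, which did not differ beyond their spread. STAT5A stood at 193 ± 14.2, CISH at 96.4 ± 2.25 and PIM1 at 79.7 ± 6.94. SOCS1 and SOCS3 were lowest, at 14.5 ± 1.22 and 14.3 ± 2.77, again within each other's spread. After DSF, PIM1 reached 310 ± 52.2 normalized counts per kb and thereby came level with STAT5B (306 ± 10.1) and STAT5A (295 ± 5.26), whose spreads overlap its own. After NSM, SOCS2 at 556 ± 131 was not separated from STAT6 at 585 ± 126. After DSF+NSM, STAT3 at 545 ± 63.8 had the highest mean, within the spread of STAT6 at 508 ± 56.0.

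Against DMSO, limma called 5 of the 9 genes higher after DSF, 6 after NSM and 4 after DSF+NSM, and none lower. Of all genes tested, 17.8% were called after DSF (11.9% up, 5.95% down), 49.1% after NSM (25.4% up, 23.7% down) and 52.8% in the combination (28.3% up, 24.5% down). The median log2 fold change over the 9 genes was 0.58 with DSF, 0.82 with NSM and 0.28 with both, beside 0.05, 0.01 and 0.03 over all genes tested. The 3 comparisons share the DMSO libraries. With every library scaled to the same sum of values (equal sums), the genes called higher made up 49.3% rather than 66.6% of all called genes for DSF, 32.9% rather than 51.7% for NSM and 16.7% rather than 53.6% for DSF+NSM. For DSF, the 3 libraries lay clear of the 3 DMSO libraries in all 9 genes, 8 of them upward and SOCS2 downward, where 60.9% of all genes did not overlap (33.4% upward and 27.6% downward). For NSM and for DSF+NSM this held for 6 genes each, beside 57% and 69.3% of all genes.

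STAT3 (chr17:42313324-42388540, minus strand, GRCh38), which carries signals of the IL-6 family and of G-CSF, was the STAT gene raised by all 3 treatments. In the order of replicates 1, 2 and 3, its normalized count was 1508, 1644 and 1776 in DMSO, 2521, 2503 and 2342 in DSF, 2892, 2470.1 and 2115 in NSM, and 2739.6, 2967 and 2346 in DSF+NSM. Every treated library exceeded every DMSO library, while the treated groups overlapped each other. The rise was 1.50-fold for DSF (95% interval 1.22 to 1.84, adjusted p = 0.0131 from limma) and 1.51-fold for NSM (1.23 to 1.85, adjusted p = 0.00347, but 0.0522 under equal sums). For DSF+NSM it was 1.63-fold (1.33 to 2.00, adjusted p = 0.000949), a direction that turned when all libraries were scaled to equal sums (log2 fold change −0.08, adjusted p = 0.598). The DSF call was lost when any one of DMSO replicates 1 and 2 and DSF replicates 1 and 2 was left out (adjusted p 0.0531 to 0.0661).

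STAT5A and STAT5B, the close relatives that act below IL-3, GM-CSF and erythropoietin receptors, lie head to head on chromosome 17 and did not share 1 pattern. STAT5A (chr17:42287547-42311943, plus strand) had normalized counts of 696, 695 and 788 in DMSO, 1101, 1099 and 1134 in DSF, 1462, 1343 and 1065 in NSM, and 734, 793 and 876 in DSF+NSM. DSF and NSM libraries lay above all DMSO libraries, whereas the DSF+NSM libraries overlapped DMSO and lay below every library of either drug alone. STAT5A rose 1.53-fold with DSF (95% interval 1.25 to 1.88, adjusted p = 0.0102 from limma) and 1.76-fold with NSM (1.43 to 2.17, adjusted p = 0.000407). With DSF+NSM the fold was 1.10 (0.895 to 1.35, adjusted p = 0.418). Without DMSO replicate 2 the DSF rise of STAT5A was not called (adjusted p = 0.0531).

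STAT5B (chr17:42199176-42288633, minus strand) had normalized counts of 1443, 1427 and 1465 in DMSO, 1556, 1603 and 1500.3 in DSF, 2075, 1919 and 1294 in NSM, and 1108, 1097 and 1226 in DSF+NSM. The DSF+NSM libraries were the lowest of all 12, and the NSM libraries were split, replicate 3 lying below DMSO and the others above. None of the STAT5B changes against DMSO was called, the log2 values being 0.10 after DSF (adjusted p = 0.692 from limma), 0.26 after NSM (adjusted p = 0.192) and −0.34 in the combination (adjusted p = 0.0866). Without NSM replicate 3 the NSM value of STAT5B was 0.47 (adjusted p = 0.000341) and DSF+NSM was called lower, at −0.34 (adjusted p = 0.00149). With all libraries kept, limma also called DSF+NSM lower with only the groups compared (adjusted p = 0.00635) and with library weights (adjusted p = 2.76e-05). The exons of STAT5A and STAT5B overlap over 415 bases on opposite strands. Of all stretches of 43 bases, the read length of the study, 14.9% of the STAT5A transcript and 11.0% of the STAT5B transcript occur in the other, and no other pair among the 9 genes shares any. Whether counting used strand is not stated, so the split of such reads between both genes is uncertain. As a share within each library, which no scaling can change, STAT5A made up 32.6% to 35.0% of the summed normalized counts of both genes in DMSO, 40.7% to 43.1% in DSF, 41.2% to 45.1% in NSM and 39.8% to 42.0% in DSF+NSM. This share was chosen after the values were seen, and it is given without a test.

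STAT6 (chr12:57095408-57132139, minus strand), the transducer of IL-4 and IL-13, had normalized counts of 1841, 1825 and 1878 in DMSO, 2499, 2227 and 2349 in DSF, 2731, 2459.7 and 1761 in NSM, and 1759, 2102 and 2174 in DSF+NSM. Only the DSF libraries were clear of DMSO. Its log2 fold changes of 0.35 (DSF, adjusted p = 0.137 from limma), 0.30 (NSM, adjusted p = 0.123) and 0.12 (combination, adjusted p = 0.552) were not called. Without NSM replicate 3 those of DSF (0.35, adjusted p = 0.00676) and NSM (0.49, adjusted p = 0.000756) were. Its exons overlap LRP1 over 59 and NAB2 over 69 bases, each on the opposite strand.

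The feedback inhibitors split into patterns of their own. SOCS1 (chr16:11254417-11256204, minus strand), whose protein inhibits the Janus kinases directly and restrains interferon signals, was a gene of few reads and was highest in the combination. Its normalized count was 17.7, 19.6 and 16.7 in DMSO, 47.4, 43.8 and 50.2 in DSF, 38.3, 38.8 and 16.6 in NSM, and 112, 72.6 and 97.7 in DSF+NSM. The DSF+NSM libraries lay above all others and the DSF libraries above all DMSO and NSM libraries, while NSM replicate 3 fell among the DMSO libraries. The rise was 2.53-fold for DSF (95% interval 1.58 to 4.06, adjusted p = 0.0124 from limma) and 4.94-fold for DSF+NSM (3.09 to 7.91, adjusted p = 6.11e-05). For NSM it was 1.59-fold and not called (0.995 to 2.55, adjusted p = 0.0929), and without NSM replicate 3 its log2 fold change was 1.06 (adjusted p = 0.00188). These values rest on 13 to 64 reads per library.

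SOCS3 (chr17:78356778-78360077, minus strand), which binds gp130 and curbs STAT3, rose to about the same level with each treatment. Its normalized count was 47.7, 34.0 and 35.3 in DMSO, 106, 136 and 82.9 in DSF, 140.4, 106 and 67.8 in NSM, and 103, 92.7 and 115 in DSF+NSM. All 9 treated libraries lay above all DMSO libraries, and the treated groups overlapped. The folds were 2.71 for DSF (95% interval 1.79 to 4.12, adjusted p = 0.00440 from limma), 2.56 for NSM (1.68 to 3.89, adjusted p = 0.00157) and 2.64 for DSF+NSM (1.74 to 4.01, adjusted p = 0.00108). With equal sums the DSF+NSM call was lost (log2 fold change 0.63, adjusted p = 0.0685). SOCS3 was counted from 36 to 143 reads per library.

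SOCS2 (chr12:93569814-93583487, plus strand), which restrains growth hormone and STAT5 signals, was raised by NSM. Its normalized count was 699.9, 670.4 and 657 in DMSO, 519, 631 and 593 in DSF, 1155, 1134 and 1688 in NSM, and 664, 658 and 948 in DSF+NSM. The NSM libraries were the highest of all 12 and the DSF libraries the lowest. NSM raised SOCS2 1.93-fold (95% interval 1.46 to 2.54, adjusted p = 0.00113 from limma). The log2 fold changes of −0.22 for DSF (adjusted p = 0.441) and 0.14 for the combination (adjusted p = 0.544) were not called, and with only the groups compared in the fit, DSF was called lower (adjusted p = 0.0369). SOCS2 shares 277 exon bases with SOCS2-AS1 on the opposite strand.

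CISH (chr3:50606489-50611774, minus strand), the STAT5-induced inhibitor whose promoter is shown above, had normalized counts of 189.6, 196 and 198 in DMSO, 255, 319.97 and 268 in DSF, 516, 441 and 339 in NSM, and 221, 237 and 249.7 in DSF+NSM. The 4 groups did not overlap at any point and were ordered DMSO, DSF+NSM, DSF, NSM. NSM raised CISH 2.18-fold (95% interval 1.69 to 2.82, adjusted p = 0.000185 from limma). The folds of 1.44 for DSF (1.11 to 1.85, adjusted p = 0.0519) and 1.21 for DSF+NSM (0.937 to 1.56, adjusted p = 0.193) missed the threshold. The DSF value of CISH passed it with genes of at least 10 in every library (adjusted p = 0.0498), with only the groups compared (adjusted p = 0.000851), with library weights (adjusted p = 6.13e-05) and without NSM replicate 1 or 3 (adjusted p = 0.0338 and 0.00355). Under equal sums the DSF+NSM value of CISH turned and was called lower (log2 fold change −0.50, adjusted p = 0.0234). CISH overlaps MAPKAPK3 over 218 exon bases on the opposite strand.

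PIM1 (chr6:37170152-37175428, plus strand), a target of STAT3 and STAT5 whose product is a constitutively active kinase, was the most strongly raised of the 9 after DSF. Its normalized count was 198, 213 and 235 in DMSO, 822, 986 and 705 in DSF, 444, 435 and 295 in NSM, and 826, 752 and 539 in DSF+NSM. Every treated library was above DMSO, and the NSM libraries were below all DSF and all DSF+NSM libraries. The rise was 3.85-fold for DSF (95% interval 2.81 to 5.27, adjusted p = 6.88e-05 from limma), 1.79-fold for NSM (1.31 to 2.45, adjusted p = 0.00539) and 3.22-fold for DSF+NSM (2.35 to 4.41, adjusted p = 2.88e-05). PIM1 was counted from 224 to 991 reads per library.

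**Figure D2:**
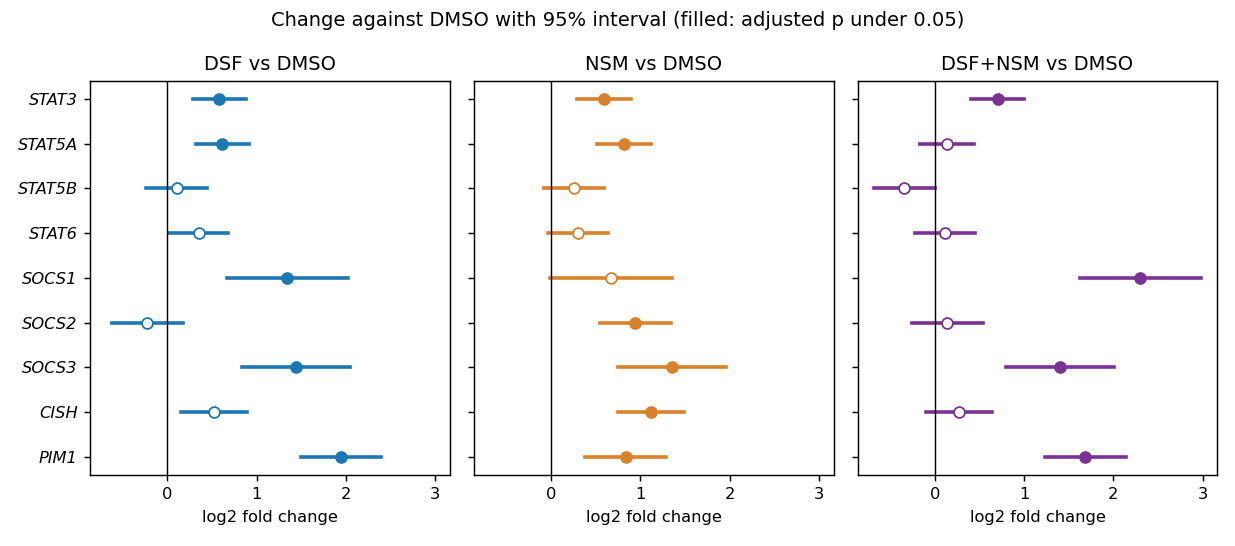
Log2 fold change against DMSO (x axis) with its 95% interval for the 9 genes after DSF, NSM and DSF+NSM, filled where the adjusted p from limma was under 0.05. STAT3, SOCS3 and PIM1 were called in all 3 panels with the scaling as deposited, and under equal sums the DSF+NSM value of STAT3 turned to −0.08.

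Compared with each other, NSM and DSF differed in 3 of the 9 genes, where 44.4% of all genes were called. Their libraries did not overlap in 4 of the 9 genes, beside 54.8% of all genes. SOCS2 was 2.25-fold higher after NSM (95% interval 1.70 to 2.97, adjusted p = 0.000407 from limma) and CISH 1.52-fold higher (1.18 to 1.96, adjusted p = 0.0128). PIM1 was lower after NSM, at 0.464 of its DSF level (0.339 to 0.635, adjusted p = 0.00128). For STAT3 the log2 difference was 0.011 with a 95% interval of −0.29 to 0.31, and for SOCS3 it was −0.09 with an interval of −0.69 to 0.52. The CISH difference was not called without DSF replicate 1 (adjusted p = 0.0560) or under equal sums (adjusted p = 0.0651). It was also not called by limma with only the groups compared in the fit (adjusted p = 0.0707).

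Adding NSM to DSF lowered the STAT5 genes and raised SOCS1, the 3 genes called between DSF+NSM and DSF, where 43.1% of all genes were called. The libraries of both groups did not overlap in 6 of the 9 genes, beside 62.4% of all genes. STAT5A in DSF+NSM was at 0.719 of its DSF level (95% interval 0.585 to 0.885, adjusted p = 0.0143 from limma), STAT5B at 0.736 (0.582 to 0.931, adjusted p = 0.0369) and SOCS1 at 1.95 (1.22 to 3.12, adjusted p = 0.0253, but 0.453 under equal sums). These calls were thin. Without DSF+NSM replicate 1 none of the 9 genes was called, and without DSF replicate 1, 2 or 3 just 1 was. Against NSM alone, DSF+NSM differed in 6 of the 9 genes, beside 38.6% of all genes. STAT5A was at 0.625 of its NSM level (0.508 to 0.769, adjusted p = 0.00224), STAT5B at 0.662 (0.523 to 0.837, adjusted p = 0.0100), CISH at 0.555 (0.430 to 0.717, adjusted p = 0.00207) and SOCS2 at 0.573 (0.434 to 0.756, adjusted p = 0.00465). SOCS1 was 3.10-fold higher (1.94 to 4.96, adjusted p = 0.00154) and PIM1 1.80-fold higher (1.32 to 2.47, adjusted p = 0.00689, but 0.171 under equal sums) in DSF+NSM than in NSM. The libraries of DSF+NSM and NSM did not overlap in these 6 genes, nor did 41.5% of all genes.

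The interaction, which is the log2 change with DSF+NSM minus the sum of both single-drug changes, was below 0 in 8 of the 9 genes. Its median over all genes tested was 0.0058, or −0.40 under equal sums. It was called in 5 of the 9, all 5 below 0, beside 26.1% of all genes (14% below 0). For STAT5A the single-drug changes summed to 1.43 and the combined change was 0.14, a difference of −1.29 (95% interval −1.72 to −0.87, adjusted p = 0.000609 from limma). CISH went from a sum of 1.65 to 0.28 (difference −1.37, interval −1.89 to −0.85, adjusted p = 0.00152). SOCS3 went from 2.80 to 1.40 (difference −1.40, interval −2.25 to −0.54, adjusted p = 0.0202) and PIM1 from 2.78 to 1.69 (difference −1.09, interval −1.73 to −0.45, adjusted p = 0.0163). For STAT5B the difference was −0.70 (interval −1.18 to −0.22, adjusted p = 0.0345), a call that was lost without any one of 10 of the 12 libraries (adjusted p 0.0580 to 0.0805). In STAT5A and CISH the estimate for the combination was smaller than that for either drug, whereas SOCS3 and PIM1 in DSF+NSM differed from DSF alone by −0.04 and −0.26 on the log2 scale, neither of them called. Under equal sums, where the median of all genes was −0.68, both were called lower than DSF. The values were −0.72 for SOCS3 (adjusted p = 0.0446 from limma) and −0.94 for PIM1 (adjusted p = 0.00137). SOCS1 was the gene whose combined change came to no less than the sum, with a difference of 0.29 and an interval of −0.67 to 1.25, although under equal sums the difference was −0.13. The differences of STAT3 (−0.47), STAT6 (−0.54) and SOCS2 (−0.58) were not called. Leaving out DSF replicate 2 left 2 of the 9 genes called, and leaving out DMSO replicate 2 or DSF+NSM replicate 2 left 3.

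**Figure D3:**
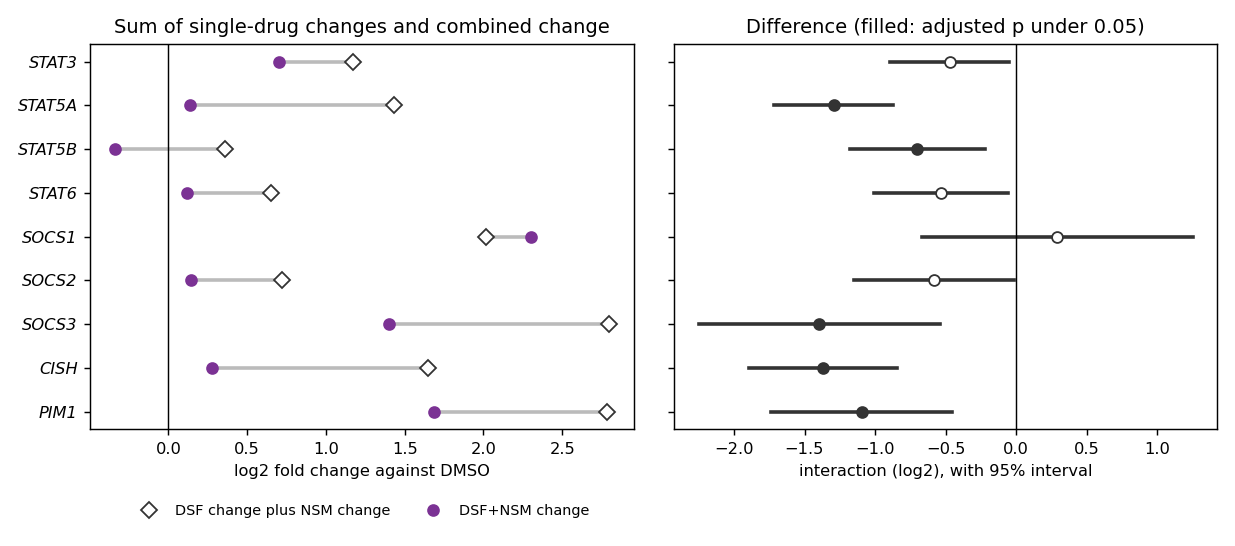
Left, log2 fold change against DMSO (x axis) after DSF+NSM (circles) and the sum of the DSF and NSM changes (diamonds). Right, their difference with its 95% interval, filled where the adjusted p was under 0.05. The circle lies left of the diamond in 8 of 9 genes with the scaling as deposited, and SOCS1 is the exception (0.29, or −0.13 under equal sums). The median difference over all genes was 0.0058, or −0.40 under equal sums.

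How DSF+NSM compares with DMSO depends on the scaling, because its libraries had the largest sums. With equal sums the typical gene, taken as the median over all genes tested, sat at −0.75 rather than 0.03. The median also moved from 0.01 to −0.25 for NSM against DMSO, from 0.0051 to −0.68 between DSF+NSM and DSF, from 0.03 to −0.48 between DSF+NSM and NSM, from −0.04 to −0.21 between NSM and DSF and from 0.0058 to −0.40 for the interaction. The share of called genes that were higher went from 50.3% to 11.8% between DSF+NSM and DSF, from 52.5% to 17.8% between DSF+NSM and NSM, from 47.3% to 31.8% between NSM and DSF and from 46.3% to 19.1% for the interaction. Of the 9 genes, and again for DSF+NSM against DMSO, SOCS1 (1.54) and PIM1 (0.91) were still called higher then, and STAT5A (−0.64), STAT5B (−1.12), STAT6 (−0.67), SOCS2 (−0.64) and CISH (−0.50) were called lower. Measured from the median of all genes, the values hardly differed between both scalings. This follows from the arithmetic and is no finding about these genes, since scaling a library shifts the log2 values of all its genes nearly alike. SOCS1 lay 2.27 above it as deposited and 2.29 with equal sums, PIM1 1.66 and 1.66, SOCS3 1.37 and 1.38, and STAT3 0.67 and 0.67. STAT5B lay below the median of all genes by −0.37 in either case.

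**Figure D4:**
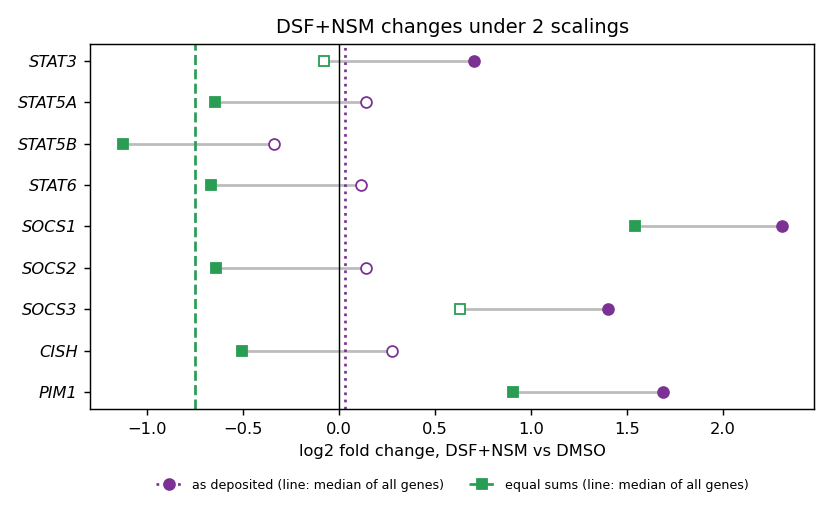
Log2 fold change of DSF+NSM against DMSO (x axis) with the scaling as deposited (circles) and with every library scaled to the same sum (squares), filled where the adjusted p was under 0.05. The vertical lines mark the median of all genes, 0.03 and −0.75. Each gene keeps about the same distance from its line, because scaling shifts all genes nearly alike.

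Around the 9 genes, the rest of the pathway was followed with lists written from general knowledge. Of the Janus kinases, JAK2, which serves the IL-3 and erythropoietin receptors, rose with NSM by 1.56 on the log2 scale (adjusted p = 0.00147 from limma), with normalized counts of 137, 143 and 174 in DMSO and 306, 383 and 759 in NSM. JAK1 rose with NSM (0.57, adjusted p = 0.0129, but 0.185 under equal sums) and with DSF+NSM (0.60, adjusted p = 0.00864, or −0.18 under equal sums). JAK3 was called with DSF+NSM (1.94, adjusted p = 0.0146, but 0.0670 under equal sums) from normalized counts of 6.38 to 41.9, and TYK2 in no comparison with DMSO. STAT2 was called higher with DSF (0.54, adjusted p = 0.0437), but not under equal sums (0.45, adjusted p = 0.127), nor without any one of 8 of the 12 libraries. STAT4 was too low to be tested.

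Among the other SOCS and PIM genes, SOCS7 and PIM3 were called higher with all 3 treatments. The log2 fold change of SOCS7 was 0.87 after DSF, 1.97 after NSM and 0.79 in the combination (0.0087 under equal sums), and its interaction of −2.04 (adjusted p = 0.000186 from limma) was below 0 as in CISH and STAT5A. PIM3, a paralog of PIM1, had log2 fold changes of 1.40, 2.10 and 2.85. PIM2 fell with NSM (−0.50, adjusted p = 0.0323), and SOCS5 rose with DSF+NSM (0.86, adjusted p = 0.0385, or 0.08 under equal sums). SOCS4 and SOCS6 were not called against DMSO with the scaling as deposited, and under equal sums both were called lower with DSF+NSM (−0.87 and −1.37).

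Of the cytokine list, 7 of 15 genes had values and 5 were tested, and the others were not analysed here. All 5 were called higher with DSF+NSM, 3 with DSF and 2 with NSM. Of all genes, 11.9% were called higher with DSF and 25.4% with NSM. The DSF+NSM count is no result, because IL10, IL11, LIF and CSF3 passed the filter only with the help of their DSF+NSM libraries. The DSF count is no result either, because IL10, which is among its 3, also needed its DSF libraries to pass. OSM passed the filter without its DSF+NSM libraries, and this ligand of the IL-6 family, which signals through STAT3, was highest in the combination. Its normalized count was 10.7, 11.4 and 4.93 in DMSO, 51.2, 83.0 and 29.6 in DSF, 84.9, 63.3 and 15.4 in NSM, and 325, 340.5 and 304 in DSF+NSM, a rise of 5.09 on the log2 scale (adjusted p = 9.80e-06 from limma). Of 18 cytokine receptors tested, 8 were called higher and 3 lower with DSF+NSM, and under equal sums 2 and 9. Of all 13502 genes tested, 28.3% were called higher and 24.5% lower, and under equal sums 1526 genes were higher and 7608 lower. IL10RA (2.66), the receptor chain through which IL-10 activates STAT3, and IL3RA (1.17) had the largest called rises, counting genes whose mean over all libraries was 50 or more, and IL13RA1 (−0.90) and IFNAR2 (−0.70) the largest called falls. Of the 11 other inhibitors, 3 were called higher and 2 lower with DSF+NSM, among them the adaptor SH2B3 (1.19) and the STAT repressors PIAS4 (0.64), PIAS3 (−0.65) and PIAS2 (−1.44). Under equal sums none of the 11 was higher and 6 were lower, where just 16.7% of all called genes were higher.

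Of 19 other STAT3 and STAT5 targets tested, 9 were called higher and none lower with DSF, 10 and 3 with NSM, and 11 and 4 with DSF+NSM (9 and 6 under equal sums). Of all genes, 11.9% were called higher and 5.95% lower with DSF, 25.4% and 23.7% with NSM, and 28.3% and 24.5% with DSF+NSM. FOS (5.31) and OSM had the largest called rises with DSF+NSM and MYC (−4.17) and CCND2 (−1.64) the largest called falls, so that the targets of these factors did not share 1 direction. The normalized count of MYC was 6648, 7067 and 7246 in DMSO and 376, 261 and 588 in DSF+NSM. Of 17 interferon targets tested, 8 were called higher and none lower with DSF, 5 and 9 with NSM, and 6 and 6 with DSF+NSM, beside the shares of all genes given above. Under equal sums the DSF count was 5 and that of DSF+NSM 4 higher and 9 lower, and leaving out single libraries moved the DSF count between 3 (lacking replicate 2 or 3 of DMSO, or 1 or 2 of DSF) and 12 (without NSM replicate 3). With DSF+NSM, IRF7 (2.51) and ISG15 (2.24) had the largest called rises at that mean, and OAS2 (−1.91) and IFIT1 (−1.55) the largest called falls. The median log2 fold change of this list was 0.68 after DSF, −0.80 after NSM and −0.12 in the combination, and under equal sums 0.58, −1.07 and −0.90.

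**Figure D5:**
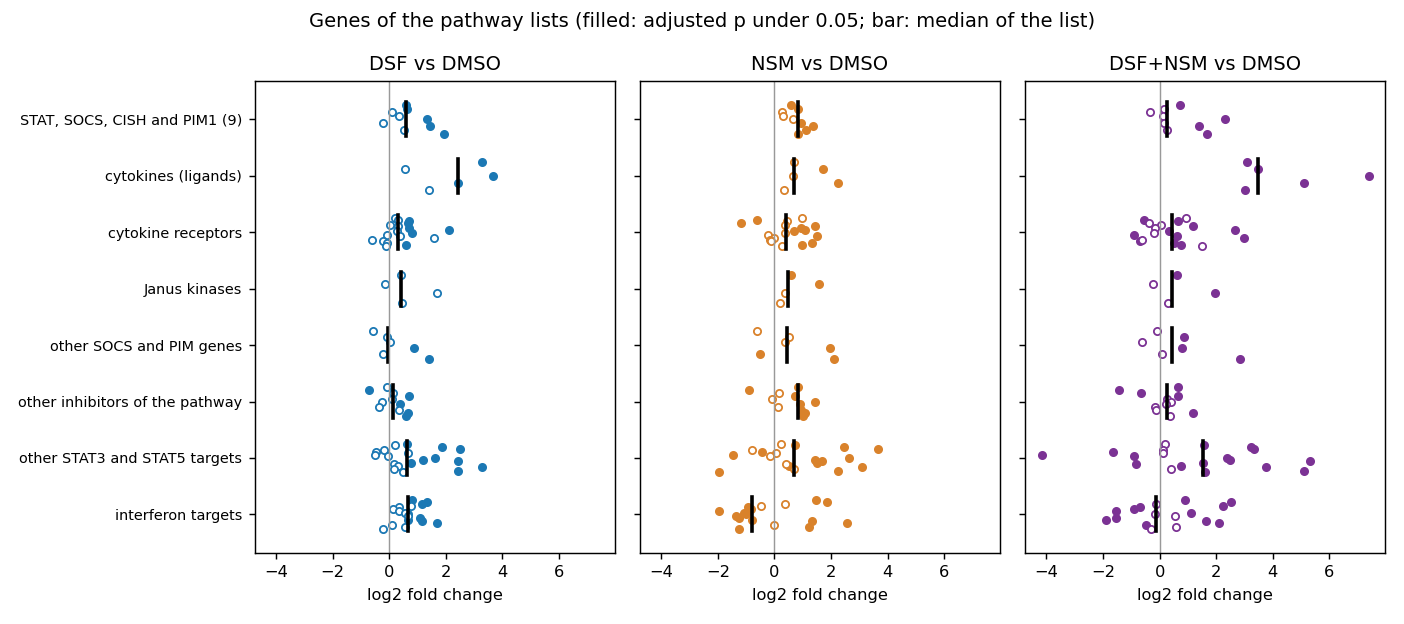
Log2 fold change against DMSO (x axis) of each tested gene of the pathway lists (rows, without the other STAT genes) after DSF, NSM and DSF+NSM, filled where the adjusted p was under 0.05, with a bar at the median of the list. With the scaling as deposited, the cytokine list had the highest median after DSF+NSM (3.46, or 2.78 under equal sums). Apart from OSM, its genes passed the filter only with their DSF+NSM libraries, which favours a high median there. IL10 also needed its DSF libraries. The interferon targets lay on both sides of 0 after NSM.

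The genes whose pattern over the 12 libraries was most like that of each of the 9 were found by the root mean square difference of log2 values from the DMSO mean of the gene. The closest was CRBN to SOCS2 (0.0771), followed among the first matches by MFN2 to STAT6 (0.0791), TMEM39B to STAT5A (0.0896), GPT2 to CISH (0.0982), USP22 to STAT5B (0.0994) and TPRG1L to STAT3 (0.0998). SH3TC1 to SOCS3 (0.204), ANXA2 to PIM1 (0.271) and AVPI1 to SOCS1 (0.299) were less alike. The second matches were HSF2 to SOCS2, TRAFD1 to STAT6, SLC1A4 to STAT5A, KCTD2 to CISH, ALKBH5 to STAT5B, GRIPAP1 to STAT3, PLAU to SOCS3, TNFRSF21 to PIM1 and SLC11A1 to SOCS1. None of the 9 genes had another of the 9 among its 2 nearest.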

How the data were processed

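RNA from 12 SHI-1 libraries was sequenced by the authors as pairs of 43-base reads after selection on dT beads. The authors' supplement names Trimmomatic, STAR and Salmon in nf-core/rnaseq, the NCBI GRCh38 reference and DESeq2, whereas the labels list bcl2fastq 2.19, Trimmomatic, Bowtie2, Picard, featureCounts, DESeq2 and hg38. The medium also differs between both sources. Per the file headers, the deposited signal is a normalized count per gene, set by the authors over 24 libraries, of which 12 were used. Between 29.0% and 32.3% of nonzero values per library were whole multiples of the smallest step (tolerance 0.01 step), so reads were not recovered for the table and no count model was run. SOCS1, SOCS3 and PIM1 were whole multiples in all 12 libraries, which gives their reads. Depth was estimated as the sum divided by the step.

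Values were taken as log2(value + 1), which understates changes of low genes, and a gene entered where 3 or more libraries reached 10. limma 3.58.1 in R 4.3.3 fitted the means of the 4 groups, with a trend, robust moderation and Benjamini-Hochberg adjustment over 13502 genes at 0.05. Positions, exon overlaps and transcript lengths came from GENCODE 44 (canonical transcripts), and promoter sequences from RefSeq. Python 3.11.15 with numpy 2.4.6, pandas 2.3.3, scipy 1.17.1 and matplotlib 3.10.9 served for the rest.

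Named are the 9 genes, all Janus kinase, other STAT, SOCS and PIM genes, the 2 largest called rises and falls after DSF+NSM in each other list (mean of at least 50), and the 2 genes nearest in pattern to each of the 9. Of these, 1 gene is not reported here. The genes and lists were chosen with earlier results of these data known. Alternatives were 3 scalings, pseudocounts of 0.1 and 10, 2 other filters, only the groups compared, library weights, the replicate number as a block, and leaving out each library. Copies of the same reads were not removed by molecular identifiers, so reads are not independent molecules.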

Additional observations from a re-analysis of the deposited data

Results flagged for a closer look

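In 5 of the 9 genes the interaction term of limma over all 12 libraries, which tests whether the response to DSF differed according to whether NSM was present, was called. Relative to the sum of the single-drug changes, the combined log2 change was lower by −1.29 in STAT5A (adjusted p = 0.000609), by −0.70 in STAT5B (adjusted p = 0.0345), by −1.40 in SOCS3 (adjusted p = 0.0202), by −1.37 in CISH (adjusted p = 0.00152) and by −1.09 in PIM1 (adjusted p = 0.0163). The interaction was called in 26.1% of all genes tested. The calls of STAT5A and CISH were kept whichever single library was left out. That of STAT5B was lost without any one of 10 libraries (adjusted p 0.0580 to 0.0805), that of SOCS3 without DMSO, DSF or DSF+NSM replicate 2 (adjusted p = 0.0539, 0.0593 and 0.0515) and that of PIM1 without DSF replicate 2 (adjusted p = 0.0503). Scaling to equal sums, which by itself moved the median interaction of all genes from 0.0058 to −0.40, gave 8 calls. Over all genes, it moved the calls below 0 from 1895 to 3866.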

How the results depend on the processing

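Of the values for single genes, 1256 kept their direction and their side of the threshold, 43 lost and 49 gained the call, and 29 changed direction, nearly all of them from a value near 0 or under equal sums. The causes were not tested. Equal sums moved the median of all genes by design and gave log2 values for DSF+NSM against DMSO of −0.079 for STAT3, −0.64 for STAT5A, −0.67 for STAT6, −0.64 for SOCS2 and −0.50 for CISH. They gave −0.012 for STAT5B after NSM against DMSO, −0.56 for STAT3 and −0.32 for SOCS2 between DSF+NSM and DSF, −0.40 for STAT3 and −0.46 for SOCS3 between DSF+NSM and NSM, −0.16 for STAT3 and −0.018 for STAT5B between NSM and DSF, and −0.13 for the interaction of SOCS1. The number of the 9 genes called went from 4 to 7 for DSF+NSM against DMSO, from 3 to 7 against DSF, and from 5 to 8 for the interaction. Calls over all genes went from 3816 higher and 3309 lower to 1526 and 7608 for DSF+NSM against DMSO. Against DSF they went from 2928 and 2890 to 976 and 7277, and for the interaction from 1632 and 1895 to 913 and 3866. STAT3 after NSM lost its call (0.32, adjusted p = 0.0522 from limma), as did SOCS1 between DSF+NSM and DSF (0.29, adjusted p = 0.453), PIM1 between DSF+NSM and NSM (0.34, adjusted p = 0.171) and CISH between NSM and DSF (0.43, adjusted p = 0.0651). The pathway lists moved by over 1.5 times in 75 counts and by less in 453.

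Library weights, whose fit stopped before its tolerance was reached, called 8 genes instead of 5 for DSF, 7 instead of 3 between DSF+NSM and DSF, 5 instead of 3 between NSM and DSF and 8 instead of 5 for the interaction. They turned SOCS3 between DSF+NSM and NSM to −0.092, STAT3 and STAT6 between NSM and DSF to −0.0029 and 0.049, and the SOCS1 interaction to −0.070. A fit restricted to the 2 groups at hand called 8 genes for DSF and 3 instead of 6 between DSF+NSM and NSM.

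When single libraries were left out, the number called was 3 to 7 for DSF (3 without DMSO replicate 2), 0 to 5 between DSF+NSM and DSF (0 without DSF+NSM replicate 1), 2 to 5 between NSM and DSF (2 without DSF replicate 1) and 2 to 7 for the interaction (2 without DSF replicate 2). The highest value was in each case that without NSM replicate 3, which also gave 9 instead of 6 for NSM. STAT5B lost its call between DSF+NSM and DSF without any one of 8 libraries. The log2 value ranged from −0.031 to 0.23 for SOCS2 after DSF+NSM, from −0.22 to 0.14 for SOCS3 between DSF+NSM and DSF, from −0.00054 to 0.22 for STAT3 and −0.23 to 0.29 for SOCS3 between DSF+NSM and NSM, from −0.10 to 0.12 for STAT3, −0.18 to 0.14 for STAT6 and −0.33 to 0.19 for SOCS3 between NSM and DSF, and from −0.098 to 0.49 for the SOCS1 interaction.

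Of all genes, DSF called 2405, but 7150 with only the groups compared, 8171 with weights, 5551 without NSM replicate 3, 1160, 1058 and 1393 without DMSO replicate 1, 2 or 3, and 1166 and 911 without DSF replicate 1 or 2. Weights gave 11107 instead of 6635 for NSM, 9120 instead of 5818 between DSF+NSM and DSF, 9782 instead of 5212 between DSF+NSM and NSM, 10369 instead of 5991 between NSM and DSF, and 8933 instead of 3527 for the interaction. With only the groups compared, 2483 were called between DSF+NSM and NSM and 3886 between NSM and DSF. The interaction called 6175 without NSM replicate 3.

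Same-numbered libraries correlated at −0.064 to 0.28 in their deviations from the group means, with 2 of 18 pairs above 0.1, so the numbers were not taken as pairing. Differently numbered libraries correlated at −0.233 to 0.239. These values do not settle whether a number marks a shared experiment. The replicate block left the number of the 9 genes called at 5, 6 and 4 against DMSO, 3 and 6 for DSF+NSM against DSF and NSM, 3 between NSM and DSF and 5 for the interaction. SOCS1 and SOCS3, with as few as 13 and 36 reads in a library, are the genes whose values depth limits most.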

Other observations

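The cytokine genes tested beside OSM were all low in DMSO and were named after their values were seen. LIF, which signals through gp130 to STAT3, was listed at 0 in all 3 DMSO libraries, at 18.4, 15.1 and 5.51 normalized counts in DSF, at 2.84, 0 and 0 in NSM, and at 167, 176 and 159 in DSF+NSM, so the combination stood far above every other library. IL11, another ligand of that family, had 2.48, 3.85 and 0.999 in DMSO and 60.7, 42.5 and 15.8 in DSF+NSM. It had 4.33, 5.07 and 2.22 in DSF and 18.4, 7.26 and 6.52 in NSM, so NSM and DSF+NSM overlapped. IL10 was at 0.884, 0.756 and 0 in DMSO, at 15.0, 9.95 and 16.4 in DSF, and at 14.0, 6.18 and 17.8 in DSF+NSM, while its NSM libraries held 0.982, 0.969 and 2.56. CSF3, which encodes G-CSF, had 1.91, 0.816 and 2.92 in DMSO and 26.5, 16.2 and 21.4 in DSF+NSM. In DSF it had 5.07, 6.98 and 7.06 and in NSM 4.24, 1.05 and 2.76. All 4 were called higher by limma after DSF+NSM, and the values in DMSO correspond to a few reads at most. Each of them passed the filter only with its DSF+NSM libraries, so the shared direction of these calls is no separate result. IL10 also needed its DSF libraries to pass.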
